A study of Homo sapiens with 3 samples.

Results

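The 10 genes described here encode the core of the machinery that licenses and opens replication origins. They are the MCM2, MCM3, MCM4, MCM5, MCM6 and MCM7 subunits of the replicative helicase, the loader CDC6, the helicase cofactors CDC45 and GINS2, and the sliding clamp PCNA. Members were taken by symbol from the deposited expression table, and all 10 were found among its 55773 gene symbols. RNA sequencing measured transcript levels in 3 lines derived from HaCaT cells, human keratinocytes that became immortal without a transgene. Every line carried the oncogenic HRas form HRasG12V. On top of it, the first line received an empty vector, the second wild-type THG-1 (WT) and the third THG-1 with the S264A substitution, and all were grown in DMEM with 10% fetal bovine serum. THG-1 is the product of TSC22D4. Each line was represented by 1 library, so that no difference between lines has a replicate check and none was given a p-value. The labels do not say whether a line was a single clone or a pool of transduced cells.

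During G1 the origin recognition complex (ORC), CDC6 and CDT1 load the MCM2-7 hexamer onto DNA as an inactive ring, a step known as licensing. On entry into S phase CDC45 and the GINS complex join the hexamer to form the active CMG helicase, and PCNA tethers the replicative polymerases behind it. Geminin, encoded by GMNN, binds CDT1 and prevents a second round of licensing. Transcription of many of these genes is driven by E2F factors at the passage from G1 to S phase. In normal epidermis they mark proliferating basal cells and are shut down as keratinocytes differentiate.

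The promoter sequences show the feature by which these genes are known to be switched on together. RefSeq promoter windows on GRCh38.p14, from 250 bases before to 50 bases after the annotated start, were at hand for 8 of the 10 genes. MCM4 and MCM5 had no entry. The E2F consensus was searched as TTTGGCGC, TTTCCCGC, TTTCGCGC and TTTGCCGC on both strands. At least 1 match lay in 7 of the 8 windows, against 3.33% of all 27305 windows of the same length. CDC45 was the gene without a match. The windows of MCM2 and MCM6, which have overlapping matches on both strands, and those of PCNA and GINS2, the genes with the widest ratios between the lines, are printed with E2F consensus matches in capitals.
MCM2, chr3:127598161-127598460, plus strand: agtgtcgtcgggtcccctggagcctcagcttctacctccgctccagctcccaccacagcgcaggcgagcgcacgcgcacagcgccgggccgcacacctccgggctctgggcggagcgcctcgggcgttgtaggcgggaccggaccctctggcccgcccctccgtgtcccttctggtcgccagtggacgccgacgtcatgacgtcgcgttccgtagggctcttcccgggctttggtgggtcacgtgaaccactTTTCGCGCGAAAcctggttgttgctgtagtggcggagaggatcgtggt
MCM6, chr2:135876394-135876693, minus strand: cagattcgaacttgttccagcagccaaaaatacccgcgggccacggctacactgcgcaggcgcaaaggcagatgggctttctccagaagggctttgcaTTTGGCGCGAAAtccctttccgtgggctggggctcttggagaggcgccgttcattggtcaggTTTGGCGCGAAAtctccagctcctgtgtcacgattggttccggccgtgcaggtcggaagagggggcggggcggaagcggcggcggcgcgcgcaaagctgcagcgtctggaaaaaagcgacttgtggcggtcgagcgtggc
PCNA, chr20:5126573-5126872, minus strand: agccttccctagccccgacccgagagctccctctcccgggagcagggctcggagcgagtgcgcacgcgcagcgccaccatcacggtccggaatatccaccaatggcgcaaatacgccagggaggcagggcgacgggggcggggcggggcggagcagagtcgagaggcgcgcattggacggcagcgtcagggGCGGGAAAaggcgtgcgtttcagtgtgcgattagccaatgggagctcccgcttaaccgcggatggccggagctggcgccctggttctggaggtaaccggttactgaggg
GINS2, chr16:85688905-85689204, minus strand: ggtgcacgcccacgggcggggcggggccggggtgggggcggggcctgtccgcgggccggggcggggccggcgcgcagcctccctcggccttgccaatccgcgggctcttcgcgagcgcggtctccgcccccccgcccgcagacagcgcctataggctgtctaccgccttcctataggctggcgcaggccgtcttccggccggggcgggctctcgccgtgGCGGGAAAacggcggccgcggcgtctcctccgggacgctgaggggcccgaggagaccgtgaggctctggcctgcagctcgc
In MCM2 the overlapping matches started at positions 3 and 7 after the start site, so that they share 4 bases. MCM6 held the same arrangement in 2 places, with matches whose first bases lay at -152, -148, -90 and -86. PCNA had 1 match, at -59, and GINS2 had 1, at -31, each on the strand opposite to the gene. The CCAAT box, read as CCAAT on both strands, was present in 7 of the 8 windows, with MCM2 as the exception, against 35.7% of all windows. The CHR element of genes transcribed late in the cell cycle, read as TTTGAA, was in 0 of 8 windows and in 15.4% of all windows. In a list of 20 genes of G2 and mitosis it was in 11 of 16 windows, whereas the E2F consensus was in 2 of these 16. A match describes the letters in a window and not binding.

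**Figure D1:**
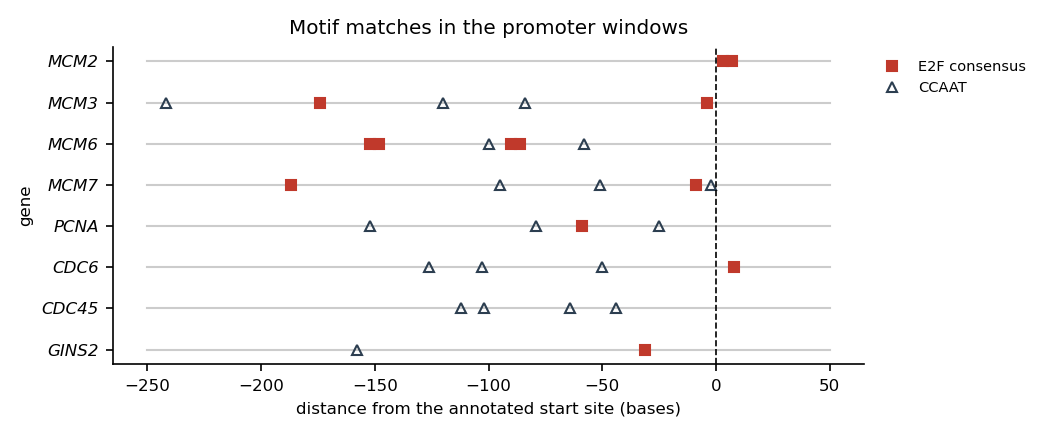
Places of E2F consensus matches (filled squares) and CCAAT matches (open triangles) in the promoter windows of 8 genes, as the distance in bases of the first base of each match from the annotated start site (dashed line). Squares are present in 7 of the 8 windows, and 1 or more of those of MCM2, MCM3, MCM7 and CDC6 lie within 10 bases of the start.

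The library depth, read from the steps of the values, was 32055052 reads for the empty vector, 12733479 for WT and 14022885 for S264A. TSC22D4 stood at 7.98, 64.9 and 51.1 RPKM (reads scaled to gene length and library depth) in the same order. All 10 keratinocyte markers were above 17 RPKM in every library. Of markers of other cell types, FBLN1 (fibroblasts) reached 1 RPKM in every library, MITF (melanocytes) in the WT library, CD68 (immune cells) in both THG-1 libraries and VWF (endothelium) in the S264A library, at most at 5.21 RPKM. Intervals on ratios and levels are exact 95% counting intervals. They cover counting error only, since reads are not independent molecules.

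PCNA was the highest of the 10 genes in every library and MCM7 the next. PCNA stood at 73.6 RPKM in the empty-vector line, 96.3 RPKM with WT and 126 RPKM with S264A, and MCM7 at 57.0, 55.4 and 54.9 RPKM. In the empty-vector library MCM4 (42.05 RPKM), MCM2 (39.7 RPKM), MCM3 (35.0 RPKM), MCM6 (21.2 RPKM), CDC6 (16.4 RPKM), MCM5 (15.4 RPKM), CDC45 (11.05 RPKM) and GINS2 (7.22 RPKM) followed. The counting intervals of CDC6 and MCM5 overlapped there, and those of all other neighbours in this order did not. These intervals leave out the gene length that RPKM divides by, on which the order between genes also depends. In that library MCM5 had 3623 reads over a length of 7338 bases, and MCM3 4093 reads over 3650 bases. The order differed between lines. MCM4 ranked 3 with empty vector, 5 with WT, where its interval overlapped that of MCM3, and 4 with S264A. MCM5 and MCM6 overlapped in the WT library (14.8 and 14.6 RPKM). The interval of MCM6 also overlapped that of CDC6 in the S264A library (18.1 and 17.7 RPKM). GINS2 was the lowest of the 10 with empty vector and WT, but in S264A its interval overlapped that of MCM5 (9.90 and 9.84 RPKM), and CDC45 was lowest at 8.19 RPKM. At the gene lengths used, between 190 reads (GINS2 with WT) and 9198 reads (MCM4 with empty vector) stood behind each value. In bulk RNA, fewer cells in S phase and less transcript per cell cannot be told apart.

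**Figure D2:**
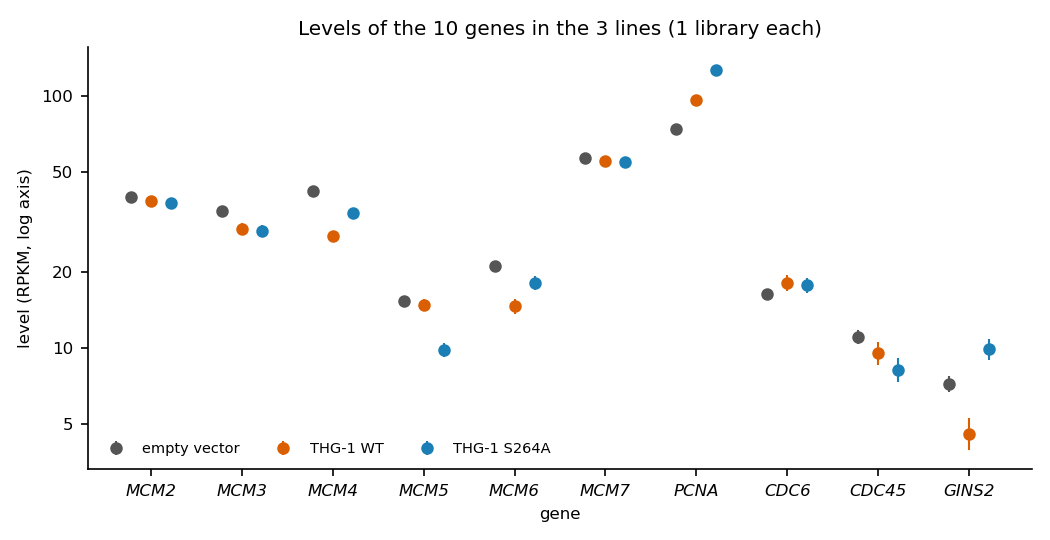
Level of each gene in RPKM (log axis) in the empty-vector, THG-1 WT and THG-1 S264A libraries, with 95% counting intervals as bars and 1 library per line. MCM2, MCM7 and CDC6 are nearly level across the lines, PCNA climbs from 73.6 to 126 RPKM, and GINS2 is lowest with WT and highest with S264A.

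The first comparison asked how the genes stood with wild-type THG-1 relative to the empty vector. Lower levels of a few helicase genes and of GINS2, and a higher level of PCNA, made up the difference. In the RPKM columns MCM2, MCM5 and MCM7 stayed within counting error of the empty-vector level. A threshold of 1.2-fold was used besides 2-fold because smaller differences of this gene family were known from earlier results. Differences used to count genes are log2 of RPKM + 1, which understates low genes. On this scale 3 of the 10 genes were at least 1.2-fold lower with WT (MCM4, MCM6 and GINS2), against 24.8% of all 11993 genes compared. PCNA was the 1 gene at least 1.2-fold higher, against 26.2% of all genes. None was 2-fold lower (1.54% of all genes) or 2-fold higher (4.53%). The median of the 10 was -0.12, beside -0.01 for all genes. A count of 3 in 10 is near the background share. With upper-quartile scaling, which also moved the median of all genes by -0.22, 8 of the 10 were at least 1.2-fold lower, against 45.7% of all genes, and 0 higher, against 14.4%.

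MCM4 showed the largest difference within the hexamer. Its level of 27.7 RPKM with WT was 0.659 times that with empty vector (counting interval 0.630 to 0.689). MCM6, its partner in the MCM4-MCM6-MCM7 subcomplex, was at 14.6 RPKM against 21.2 RPKM, a ratio of 0.689 (0.635 to 0.746). MCM3 stood at 29.6 against 35.0 RPKM, a ratio of 0.848 (0.797 to 0.901). The remaining hexamer genes had intervals that held 1. MCM2 was at 38.3 against 39.7 RPKM (0.964, 0.919 to 1.01), MCM5 at 14.8 against 15.4 RPKM (0.961, 0.903 to 1.02) and MCM7 at 55.4 against 57.0 RPKM (0.972, 0.932 to 1.01). All 6 hexamer ratios were thus under 1. The log2 differences of MCM2, MCM5 and MCM7, -0.05, -0.05 and -0.04, depended on the scaling. They were -0.31, -0.30 and -0.30 with upper-quartile scaling, and -0.25, -0.17 and -0.22 in the authors' quantile-normalised columns.

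Among the factors that load or complete the helicase, GINS2 stood apart. GINS2, a subunit of the GINS tetramer, was at 4.57 RPKM with WT and 7.22 RPKM in the empty-vector line, a ratio of 0.634 (0.537 to 0.744). CDC45, which joins GINS on the hexamer, had a ratio of 0.864 (0.763 to 0.977). CDC6, an ATPase that acts with ORC to load the hexamer, was at 18.1 against 16.4 RPKM, a ratio of 1.10 (1.01 to 1.199), and its log2 difference of 0.13 turned to -0.12 with upper-quartile scaling. PCNA, which stood at 96.3 against 73.6 RPKM, had a ratio of 1.31 (1.23 to 1.38), but its log2 difference of 0.38 was 0.12 with upper-quartile scaling, under the 1.2-fold rule. In all, 5 of the 10 ratios (MCM3, MCM4, MCM6, CDC45 and GINS2) had an interval wholly below 1, against 32.1% of all genes. PCNA and CDC6 had one wholly above 1, against 32.6%.

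The second comparison set S264A against the same empty-vector library, which both comparisons share. PCNA was higher by a larger factor here, MCM5 and CDC45 were the lowest genes relative to the control, and GINS2 was above it. PCNA had a ratio of 1.72 (1.63 to 1.81), higher than 94.9% of all genes compared. GINS2 was at 9.90 against 7.22 RPKM, a ratio of 1.37 (1.22 to 1.54). MCM5 was at 9.84 against 15.4 RPKM, a ratio of 0.639 (0.596 to 0.685), and CDC45 at 8.19 against 11.0 RPKM, a ratio of 0.742 (0.653 to 0.841). MCM4 had a ratio of 0.820 (0.788 to 0.853), MCM3 of 0.833 (0.784 to 0.884) and MCM6 of 0.854 (0.795 to 0.917). MCM2 stood at 37.7 RPKM (0.949, 0.906 to 0.993) and MCM7 at 54.9 RPKM (0.964, 0.926 to 1.00). For CDC6 the ratio was 1.08 (0.993 to 1.17), and its log2 difference of 0.10 turned to -0.09 with upper-quartile scaling. Intervals wholly below 1 were found for 6 of 10 genes (all of the hexamer but MCM7, and CDC45), against 26.3% of all genes. PCNA and GINS2 had intervals wholly above 1, against 30.3%.

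By size, 3 of 10 genes were at least 1.2-fold lower with S264A (MCM4, MCM5 and CDC45), against 17.4% of all 12010 genes. PCNA and GINS2 were at least 1.2-fold higher, against 22.4%. No member was 2-fold lower (0.824% of all genes) or 2-fold higher (2.99%). The median of the 10 was -0.15, beside 0.02 for all genes, and that of the 6 hexamer genes -0.24. MCM3 lay just short of the threshold, at -0.26. With upper-quartile scaling 35.3% of all genes were lower and 14% higher by this threshold. GINS2 fell short of it there (0.22), and MCM4 with a pseudocount of 5 (-0.25).

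The third comparison set the S264A line directly against the WT line and so did not use the empty-vector library. GINS2 differed most. It stood at 9.90 RPKM with S264A and 4.57 RPKM with WT, a ratio of 2.16 (1.82 to 2.58), and 98.3% of all genes compared lay below it. Its log2 difference of 0.97 was under the 2-fold rule on the RPKM + 1 scale and passed it with upper-quartile scaling (1.01), with scaling to an equal sum (1.06) and with a pseudocount of 0.1 (1.10). PCNA was higher with S264A by a ratio of 1.31 (1.24 to 1.39), MCM4 by 1.24 (1.18 to 1.31) and MCM6 by 1.24 (1.13 to 1.36). MCM6 was short of the 1.2-fold rule with a pseudocount of 5 (0.24). MCM5 was lower, with a ratio of 0.665 (0.613 to 0.722). The ratio for CDC45 was 0.858 (0.736 to 1.00). The intervals of MCM2 (0.931 to 1.04), MCM3 (0.913 to 1.06), MCM7 (0.945 to 1.04) and CDC6 (0.887 to 1.08) all held 1, and their log2 differences of -0.02, -0.02, -0.01 and -0.03 turned positive in the quantile-normalised columns or with scaling to an equal sum. Only MCM5 had an interval wholly below 1, against 26.1% of all genes, and 4 of 10 had one wholly above 1, against 28.1%. These 4 of 10 genes (MCM4, MCM6, PCNA and GINS2) were also at least 1.2-fold higher, against 23.3% of all 12069 genes. MCM5 was the 1 gene at least 1.2-fold lower (20.8% of all genes). No member was 2-fold higher (1.55%) or lower (2.23%) on this scale, and the median was -0.02 beside 0.02 for all genes. In the quantile-normalised columns it was 0.13.

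**Figure D3:**
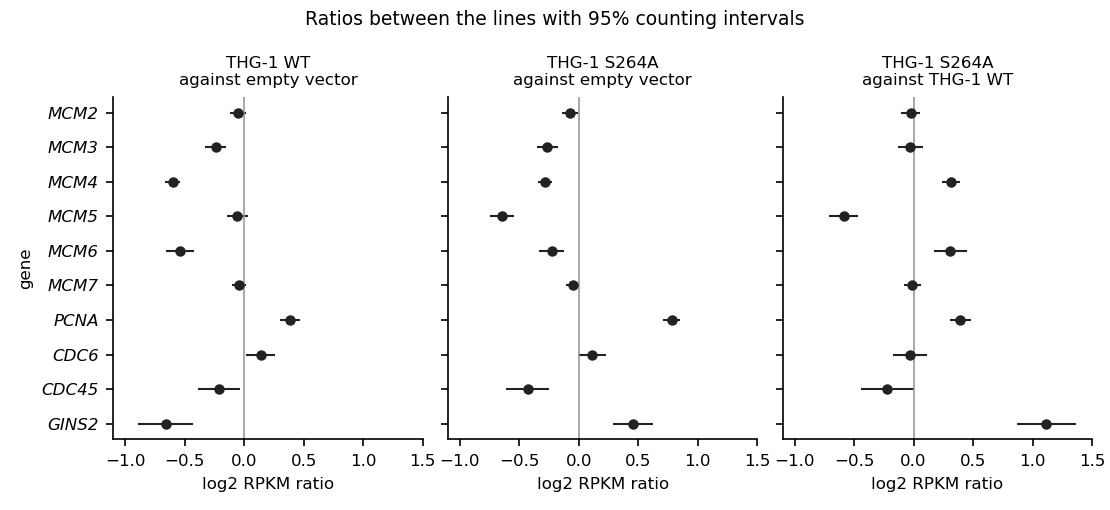
Log2 ratio of RPKM for each gene in the 3 comparisons, with 95% counting intervals as bars and the line at 0 marking equal levels. MCM2, MCM7 and CDC6 lie near 0 in every panel, PCNA lies to the right in every panel, and GINS2 lies left of 0 for WT and right of 0 for S264A.

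Because the hexamer holds 1 copy of each subunit, the balance among its transcripts was described as shares and ratios within each library, in which library scaling cancels. The sum over the 6 genes, in which it does not cancel, was 210.4 RPKM in the empty-vector line, 180.5 RPKM with WT and 184 RPKM with S264A. MCM7 held 27.1% of the sum with empty vector, 30.7% with WT and 29.8% with S264A. The share of MCM4 was 19.99%, 15.4% and 18.7% in the same order, and that of MCM5 7.32%, 8.20% and 5.34%. The highest subunit exceeded the lowest 3.70-fold with empty vector, 3.79-fold with WT and 5.58-fold with S264A. MCM7 was the highest subunit in each library, and MCM5 the lowest with empty vector and with S264A. The size of a share and the spread within a library depend also on the gene lengths used. PCNA exceeded the mean of the hexamer genes 2.10-fold with empty vector, 3.20-fold with WT and 4.11-fold with S264A.

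In the GINS tetramer, which also holds 1 copy of each subunit, GINS2 held 29.7% of the summed RPKM in the empty-vector line, 22.2% with WT and 32.3% with S264A. GINS1 was at 7.26, 8.06 and 11.0 RPKM in this order and GINS3 at 3.27, 3.76 and 4.94 RPKM. GINS4 was at 6.51, 4.16 and 4.78 RPKM, so that it was low in both THG-1 lines. The subunits thus did not share 1 pattern across the lines. The genes that flank GINS1, GINS3 and GINS4 on their chromosomes were not examined.

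Other genes of the licensing step were compared from a list of 8. With WT, 4 of 8 were at least 1.2-fold lower and 0 higher (24.8% and 26.2% of all genes), with a median of -0.27. These were ORC2, ORC3, ORC5 and GMNN, of which ORC5 was lowest (3.95 to 2.59 RPKM) and ORC6 highest (log2 difference 0.10). The median turned to 0.06 with a filter at 5 RPKM, under which ORC2, ORC4 and ORC5 drop out. With S264A, CDT1 and ORC6 were at least 1.2-fold higher (22.4% of all genes) and 0 of 8 lower (17.4%). Over the alternatives the count of lower genes ran from 0 to 5, and the share of all genes from 7.55% to 35.3%. CDT1, which brings the hexamer to ORC, was at 20.98 RPKM in the empty-vector line, 22.2 RPKM with WT and 34.4 RPKM with S264A, and the last was 1.64 times the first (1.54 to 1.75). GMNN was at 10.1, 7.10 and 8.53 RPKM. CDT1 stood 2.07-fold above GMNN with empty vector, 3.12-fold with WT and 4.04-fold with S264A. The genes that flank CDT1, GMNN and ORC6 on their chromosomes were not examined. ORC1, the ORC subunit whose level varies with the cell cycle, was at 10.5, 11.0 and 12.4 RPKM.

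Beyond licensing, 9 further lists cover helicase activation, polymerases, clamp loading, PCNA partners, nucleotide supply, chromatin assembly, the replication checkpoint, MCM relatives, and G1/S control. With licensing and without G1/S control, these lists hold 87 genes, of which 85 could be compared. With WT, 40 of 85 were at least 1.2-fold lower and 4 higher (background 24.8% and 26.2%), with a median of -0.23 against -0.01 for all genes. With S264A 13 were lower and 11 higher (17.4% and 22.4%), with a median of -0.04. Set against WT, S264A had 0 lower and 29 higher (20.8% and 23.3%), with a median of 0.21. Over the alternatives the count of 40 ranged from 24 to 62, that of 13 from 7 to 35, that of 11 from 5 to 11 and that of 29 from 14 to 46. The shares of all genes moved as well. In the same order they ran from 10.3% to 45.7%, 7.55% to 35.3%, 11.7% to 26.4% and 9.23% to 32.7%. The median with S264A reached -0.21. The 10 members, with 3 lower and 1 higher in the first of these comparisons, are not set apart from these genes by a test.

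Clamp loading and lagging-strand genes are the partners of PCNA at the fork. With WT, 11 of 17 were at least 1.2-fold lower and 0 higher (24.8% and 26.2% of all genes), with a median of -0.37. RPA3, a subunit of the single-strand binding complex, was lowest (9.04 to 4.25 RPKM, a ratio of 0.470, 0.398 to 0.553), and in S264A it was at 8.74 RPKM. RPA2 was the highest gene of this list against the empty vector, with log2 differences of 0.20 for WT and 0.32 for S264A. RNASEH2B, of the enzyme that removes ribonucleotides from DNA, was at 8.04, 5.33 and 4.95 RPKM. CHTF18, of an alternative clamp loader, was the lowest gene of the list in S264A against WT (-0.19).

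PCLAF, listed in the table as KIAA0101, encodes a small protein that binds PCNA. It stood at 15.5 RPKM in the empty-vector line, 9.01 RPKM with WT and 8.81 RPKM with S264A, and was thus lower in the lines in which PCNA was higher. Its ratios were 0.581 (0.516 to 0.653) and 0.568 (0.506 to 0.637). DTL, the adaptor of a ubiquitin ligase that acts on PCNA-bound proteins, was at 11.3, 8.32 and 11.4 RPKM. Of the 6 of 7 PCNA partner genes that reached 1 RPKM, WDR48 was the highest with WT and with S264A (0.03 and 0.05). HLTF, below 1 RPKM in every library, had 4, 34 and 7 reads.

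Of the 15 activation and fork genes 5 were at least 1.2-fold lower and 0 higher with WT (24.8% and 26.2% of all genes). The lowest was GINS4 (-0.54) and the highest GINS3 (0.15). With S264A 2 were lower and 3 higher (17.4% and 22.4% of all genes), the highest being GINS1 (0.54). WDHD1, which couples the helicase to polymerase alpha, was the highest in S264A against WT (4.37 to 7.70 RPKM) and TICRR the lowest (-0.16). MCM10, an activator of the CMG helicase, was near level at 11.1, 11.1 and 10.5 RPKM. Among 12 polymerase genes 5 were at least 1.2-fold lower and 2 higher with WT, against the same 24.8% and 26.2% of all genes. POLA1, the catalytic subunit of polymerase alpha, was at 12.6, 7.71 and 9.14 RPKM and the lowest against the empty vector in both THG-1 lines. POLE4 was highest with WT (0.41), POLE3 with S264A (0.44) and PRIM1 in S264A against WT (0.48), where POLE4 was lowest (-0.26).

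Nucleotide supply genes were at least 1.2-fold lower with WT in 5 of 8 cases and higher in 1 (24.8% and 26.2% of all genes). Their median was -0.38. DCK, the kinase that salvages deoxycytidine, was at 5.14 RPKM in the empty-vector line, 1.92 RPKM with WT and 3.91 RPKM with S264A. Its ratio to the empty vector was 0.374 with WT (0.291 to 0.474), and it was the 1 gene of these replication lists past 2-fold on the log2(RPKM + 1) scale (-1.07). RRM2, the regulated subunit of ribonucleotide reductase, was at 19.8, 27.6 and 23.7 RPKM. Of 7 chromatin assembly genes none was at least 1.2-fold lower or higher with WT, where they ran from CHAF1B (-0.23) to UHRF1 (0.24). However, 5 were lower by that much with upper-quartile scaling (45.7% of all genes). With S264A 1 of them, UHRF1, was at least 1.2-fold higher (0.29, 22.4% of all genes). Between the THG-1 lines they ran from DNMT1 (-0.18) to ASF1B (0.27). Checkpoint genes were at least 1.2-fold lower with WT in 4 of 9 cases (24.8% of all genes). HUS1 was lowest (-0.80) and CHEK1 highest (0.16). CHEK2 was lowest with S264A (-0.49). Of the MCM relatives, MCM8 was at 9.11, 11.9 and 12.9 RPKM, MCM9 at 2.08, 1.55 and 1.81 RPKM, and MCMBP, which binds the hexamer, at 13.6, 15.2 and 12.9 RPKM.

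Upstream of the members, the G1/S list had 11 of 31 genes at least 1.2-fold lower and 9 higher with WT. The shares over all genes were 24.8% and 26.2%. CDKN1A, which encodes the inhibitor p21 of cyclin-dependent kinases and of PCNA-dependent synthesis, was at 8.78 RPKM in the empty-vector line, 33.9 RPKM with WT and 16.5 RPKM with S264A. Its ratio to the empty vector was 3.86 (3.54 to 4.22) with WT and 1.88 (1.70 to 2.08) with S264A. Cyclin D2 (CCND2) was at 14.9, 52.0 and 34.8 RPKM, with ratios of 3.50 and 2.34. RBL2, which encodes the pocket protein p130, was lowest with WT (6.16 to 3.35 RPKM) and stood at 6.59 RPKM with S264A. E2F1 was at 8.55, 10.9 and 11.3 RPKM, E2F4 at 16.9, 19.3 and 28.6 RPKM, and E2F5, lowest with S264A, at 1.51, 0.729 and 0.927 RPKM.

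Genes of G2 and mitosis, which mark later phases of the cycle, are given beside the members. Of 20 genes 15 were at least 1.2-fold lower with WT (24.8% of all genes) and 1, MKI67, higher (26.2%), with a median of -0.41. With S264A 11 were lower (17.4%) and 0 higher (22.4%), with a median of -0.31. CCNB2 was lowest with WT (-0.91) and KIF20A with S264A (-0.82), where TPX2 was highest (0.13). Between the THG-1 lines KIF20A was lowest in S264A (-0.46) and TOP2A highest (0.61). The member medians in the same comparisons were -0.12 and -0.15. The difference between these lists was not tested, since genes are not replicates.

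**Figure D4:**
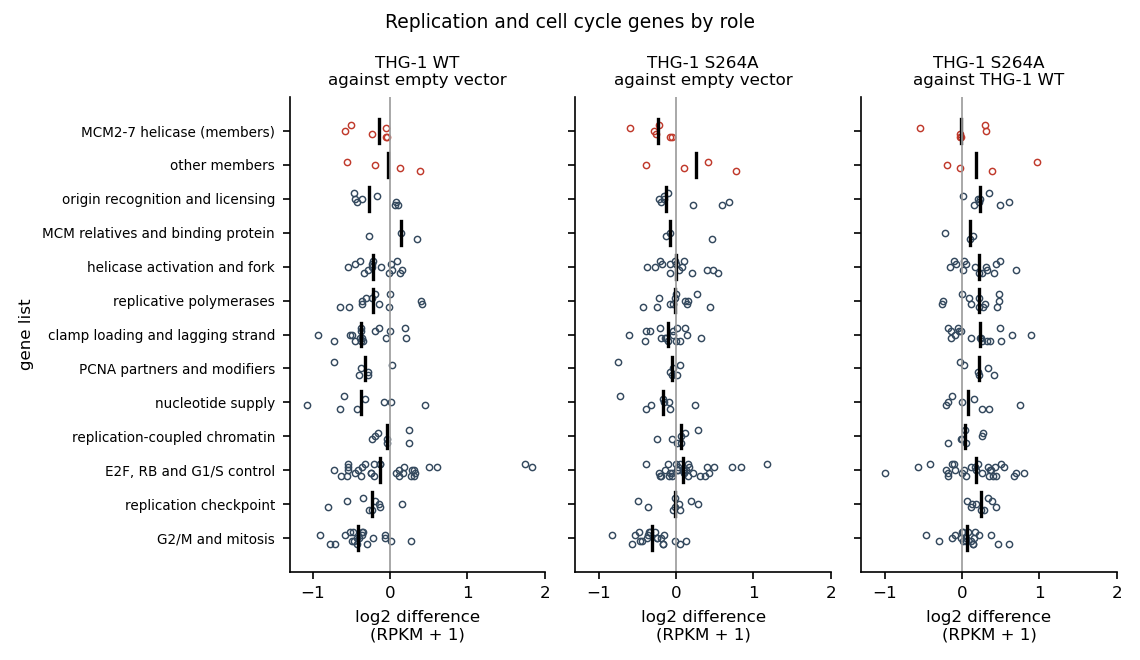
Log2 difference on the RPKM + 1 scale for each gene (open circles) of the member lists (red) and of 11 other lists (dark), in the 3 comparisons, with the list median as a black bar. With WT the medians of most lists lie left of 0, and with S264A against WT they lie right of 0, while the hexamer bar stays near 0 in the last panel.

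The members lie on 9 chromosomes, with MCM5 and CDC45 both on chromosome 22. The 5 expressed genes on either side of each member, in the gene order of RefSeq GRCh38.p14, were examined after the values of the nearest neighbours had been seen. Against the empty vector, the medians around PCNA and MCM4 stood apart from those of most windows in both THG-1 lines. The median around GINS2 did so with S264A (99.5 percentile) but not with WT (74.6 percentile). Around GINS2 on chromosome 16, 10 of 10 genes were at least 1.2-fold higher with S264A than with empty vector, as for 1.46% of the 10483 genes with such a window. Their median was 0.77, and GINS2 itself was at 0.41. COX4I1 near GINS2, a respiratory chain gene, went from 31.2 to 47.0 RPKM. With WT the median of these 10 genes was 0.15, while GINS2 was at -0.56. In S264A against WT 10 of 10 were at least 1.2-fold higher, as for 0.792% of such windows. Their median was 0.62, and GINS2 was at 0.97.

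Around PCNA on chromosome 20, 10 of 10 genes were above 0 in both THG-1 lines, and 8 of 10 were at least 1.2-fold higher in each. Windows with 10 of 10 genes above 0 made up 2.96% of all windows with WT and 6.51% with S264A. The share of windows with 8 of 10 at least 1.2-fold higher was not computed. The flanking median was 0.51 with WT and 0.71 with S264A, beside 0.38 and 0.77 for PCNA. PRNP, which encodes the prion protein, was at 55.2 RPKM in the empty-vector line, 179 RPKM with WT and 234 RPKM with S264A. MCM8, itself 1 of the 10 flanking genes, was also at least 1.2-fold higher in both lines. In S264A against WT the flanking median was 0.15, beside 0.39 for PCNA.

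Around MCM4 on chromosome 8, 9 of 10 genes were at least 1.2-fold lower with WT, with a median of -0.64 beside -0.58 for MCM4. With S264A 7 of 10 were lower, with a median of -0.45 beside -0.28. PRKDC, the neighbour of MCM4 and the gene for the catalytic subunit of DNA-dependent protein kinase, was at 49.0, 31.7 and 33.6 RPKM. CEBPD was the exception, at 4.23 RPKM in the empty-vector line and 7.32 RPKM with WT. The median over the 378 other expressed genes of chromosome 8 was -0.35 with WT and -0.32 with S264A. On chromosome 22 the median in S264A against WT was -0.52 over 257 genes, beside -0.54 for MCM5 and -0.20 for CDC45. Against the empty vector, the chromosome 22 median was 0.19 with WT and -0.31 with S264A. MCM5 was at -0.05 and -0.60 in the same comparisons, and CDC45 at -0.19 and -0.39.

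The flanking medians of MCM2, MCM3, MCM6, MCM7 and CDC6 against the empty vector lay between the 17.7 and 88.3 percentiles of all windows. MCM6 on chromosome 2 was at -0.51 with WT, while its 10 flanking genes had a median of -0.20 and the chromosome one of -0.02. With S264A MCM6 was at -0.22 beside a flanking median of -0.02. The flanking medians of MCM3, MCM7 and CDC6 were -0.22, -0.04 and -0.06 with WT, beside -0.23, -0.04 and 0.13 for the members. MCM2 was at -0.05 with WT and its flanking genes at 0.20. Relative to the flanking median, 0 of 10 members were at least 1.2-fold higher than the empty vector in either THG-1 line, and MCM4 was not lower in either. With WT 4 were at least 1.2-fold lower (MCM5, MCM6, CDC45 and GINS2), and with S264A 3 were (MCM2, MCM5 and GINS2). The share of all genes was not computed for this setting. How far the ratios of the members follow those of their regions was not tested, and DNA of the lines was not analysed here.

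**Figure D5:**
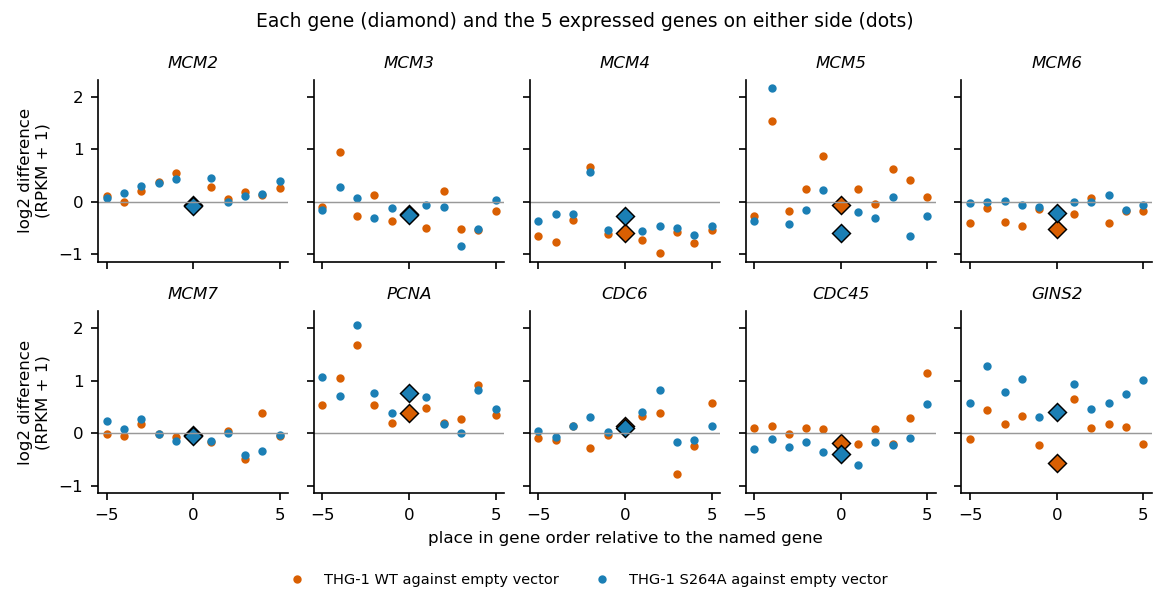
Log2 difference to the empty vector on the RPKM + 1 scale for each member (diamond) and for the 5 expressed genes on either side in gene order (dots), with WT in orange and S264A in blue. All dots around PCNA lie above 0, all blue dots around GINS2 lie above 0, and 9 of 10 dots around MCM4 lie below 0 in both colours.

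Some annotated loci share sequence or place with members. The PCNA pseudogenes PCNAP1, PCNAP3 and PCNAP4 and the miRNA genes MIR106B, MIR93 and MIR25 inside MCM7 were listed at 0 in all 3 libraries. AP4M1, which overlaps MCM7 in RefSeq, was at 2.11, 1.78 and 1.80 RPKM, and GSE1, which overlaps GINS2, at 4.66, 3.84 and 6.02 RPKM. The sources used here do not say whether reads were counted by strand, so that reads of overlapping genes cannot be told apart. GSE1 was below GINS2 in every library and, like it, lowest with WT and highest with S264A. By the distance between log2 ratios to the empty vector over the 3 libraries, the 5 genes outside the lists nearest to the median profile of the members were MTCH1, COPB2, RPS15A, RPL12 and ALKBH5. Of 3016 genes with a mean of at least 10 RPKM, 44.4% were nearer to that median profile than the median member, so that the median profile is a common one.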

How the data were processed

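RNA sequencing of 3 HaCaT-derived lines was compared, with 1 library per line. The deposited table holds 57773 rows. Per the file headers each library has a column of expression values, which are RPKM, and one of normalised values. The latter are the RPKM after quantile normalisation across libraries by the authors, since their sorted values differ by 0 between libraries. The submitters' processing notes name build hg19. For the aligner, the counting program, the annotation and the strand, the entry is the same: not given in the sources used here.

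No coordinates were taken over between builds: RefSeq GRCh38.p14 served for promoters and gene order only. Depths were read from the RPKM steps of genes in 1 exon block, with lengths from GENCODE 29. Whole reads within 0.001 reads were then found for 12402 of 12402 genes that reached 1 RPKM or belong to a list. A GENCODE length that fitted was kept, and otherwise the smallest fitting length from at least 0.5 of it. The latter was used for MCM2, MCM4, MCM7 and CDC6 among the members. For 1412 genes without a GENCODE length for their symbol, the smallest fitting length was used. Such fitted lengths can understate the reads (as may be so for CDC6) and so widen the counting intervals. The recovery and the counting of genes by size were tested on simulated data. The reads served for exact Clopper-Pearson intervals on ratios and Poisson intervals on levels, and no count test was run.

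Genes at or above 1 RPKM in either library were compared by log2((RPKM + 1)/(RPKM + 1)). Of symbols with several rows, the row with the highest mean was used. Named genes were all members, the highest and lowest gene of each list in each comparison, list genes past 2-fold, and the 5 nearest profiles. A gene that this rule names is not reported here. A few further genes were named after their values were seen, among them the neighbours on the chromosome. Members, lists, thresholds and tests were chosen with earlier results of these data known. Python 3.11.15, NumPy 2.4.6, SciPy 1.17.1 and pandas 2.3.3 were used. A planned comparison of protein sequences was not run.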

Additional observations from a re-analysis of the deposited data

How the results depend on the processing

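With 1 library per line, no alternative leaves out a replicate. No paired analysis was possible because each group has 1 sample. The median of all genes shifted by -0.22 (WT) and -0.17 (S264A) against the empty vector with upper-quartile scaling, and by -0.13 for WT with scaling to an equal sum. These shifts are contained in the values that follow. The member median of -0.12 with WT became -0.37 (upper quartile), -0.27 (equal sum) and -0.26 (the authors' quantile-normalised columns), with 8, 5 and 5 members at least 1.2-fold lower in place of 3 (45.7%, 36.8% and 27.9% of all genes) and 0 higher in place of 1 (14.4%, 17.9% and 22.7%). With S264A against the empty vector, the median of -0.15 became -0.34 with upper-quartile scaling, with 6 members lower and 1 higher (35.3% and 14% of all genes). In the quantile-normalised columns 5 were lower (22.1%). In S264A against WT the median of -0.02 became 0.13 in the quantile-normalised columns and 0.10 with an equal sum. There 1 member, GINS2, passed 2-fold with upper-quartile scaling, an equal sum or a pseudocount of 0.1. Under other scalings, filters and pseudocounts the signs that turned were those of CDC6 in every comparison and of MCM2, MCM3 and MCM7 in S264A against WT. The filters at 0 and 5 RPKM only choose which genes are compared, so they cannot change the value of a member that passes. Centring on all genes, which subtracts 1 small median from every member, moved none beyond its counting interval. A pseudocount of 5 moved 3 of 30 values.

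Differences from the regional medians were added after seeing the data. Relative to the 10 flanking genes, 0 members were at least 1.2-fold higher in either THG-1 line against the empty vector. By the same threshold 4 were lower with WT and 3 with S264A. In S264A against WT, 1 was higher and 0 lower. The sign turned for MCM4 (0.052 with WT, 0.17 with S264A), PCNA with WT (-0.13), GINS2 with S264A (-0.37) and CDC45 in S264A against WT (0.12). Relative to the chromosome, the median was -0.057 for S264A against the empty vector, with 1 member lower and 1 higher. With WT 3 were lower and 0 higher. For S264A against WT the median was 0.14, with 0 lower and 5 higher. The share of all genes was not computed relative to the flanking genes or to the chromosome, so these counts have no background. The sign turned for MCM4 with S264A (0.045), MCM7 with WT (0.094) and, in S264A against WT, CDC6 (to just above 0) and CDC45 (0.32). The licensing list with WT turned from -0.27 to 0.062 with a filter at 5 RPKM, under which 5 of 8 genes remain. The cause of these moves was not tested.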

Other observations

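Beyond the nearest genes, medians over the 25 expressed genes on either side of a member were examined. With S264A against the empty vector they were 0.67 around PCNA and 0.70 around GINS2, beside 0.02 for all genes. MCM4 with WT had such a median of -0.44, and MCM6 with WT one of -0.09, beside its own -0.51. Among all windows of 10 flanking genes, the median around PCNA with S264A was at the 99.2 percentile and that around GINS2 at the 99.5 percentile. The window of MCM4 with WT was at the 0.878 percentile and that of MCM5 with S264A at the 12.8 percentile. SNAI2, a transcription factor gene of the MCM4 window, was at 9.34, 4.23 and 6.56 RPKM in the empty-vector, WT and S264A libraries.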
